A study of Mus musculus with 16 samples.

Results

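Macrophage and myeloid cell markers were followed in the hearts of mice with a cardiomyocyte-specific deletion of the estrogen receptor alpha (cs-ERα−/−). The set held 35 genes, chosen by name with earlier results of these data known, and all array probes of these genes were taken. Of the 35 genes, 33 were named by at least 1 probe, with 50 probes of the 25697 on the array, and 27 genes (37 probes) passed the detection filter out of 8581 genes (12246 probes) tested in all. A probe passed when 3 or more of the 4 arrays of 1 group had a detection p under 0.05. The 4 groups were 4 female and 4 male cs-ERα−/− mice and 4 female and 4 male WT mice, on C57BL/6, 18 weeks old and on regular diet, with 1 Illumina MouseRef-8 array of cardiac RNA per mouse. In cs-ERα−/− mice the Cre recombinase was driven by the promoter of α-MHC, the heavy chain of cardiac myosin, so the deletion was aimed at cardiomyocytes, and both genotypes carried a floxed exon of the receptor gene. WT mice were ERα flox/flox, and no label gives Cre to them, so what Cre does and what receptor loss does cannot be told apart. Values are background-corrected, quantile-normalized signals on the log2 scale, where a difference of 1 is a doubling, and a gene is given by its brightest tested probe.

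Macrophages are the most abundant white blood cells of the healthy heart. Resident macrophages, which in the mouse largely renew themselves within the tissue, carry the scavenger and endocytic receptors Mrc1, Lyve1, Folr2 and Cd163, while cells newly recruited from blood monocytes carry the chemokine receptor Ccr2. Both kinds take up immune complexes and debris through Fc and scavenger receptors, and break them down with lysosomal enzymes. RNA came from pulverized cardiac tissue. More or fewer cells of a type and more or less RNA per cell therefore cannot be told apart.

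The label of the gene set was borne out in part. General macrophage markers such as Adgre1, Mrc1, Cd163, Fcer1g and Aif1 were detected on 16 of 16 arrays by their brightest probe. A second probe of Adgre1 and of Aif1 was detected on 16 arrays too. A further probe was detected on 1 array for Adgre1, 0 for Cd163 and 0 for Aif1. Ptprc, which encodes CD45 of all white blood cells, was detected on 0 of 16 arrays by either of its probes, as were Ccr2, Itgam, the α chain of a phagocyte integrin, Msr1, a scavenger receptor, and Cd48, a surface protein of blood cells. Ctss, the lysosomal protease cathepsin S, was detected on 2 female and 1 male cs-ERα−/− arrays and on 0 female and 1 male WT arrays, which was too few for a test. No probe is annotated with Cd68, a lysosomal glycoprotein, or with Csf1r, the receptor that macrophages need for growth, and these 2 genes are not analysed here. Of the 27 genes tested, 23 were detected on all 16 arrays. The other 4 were Itgb2 and Fcgr1, detected on 9 arrays each, and Aoah and Cd53, detected on 10 arrays each. All 4 passed the filter through a cs-ERα−/− group alone, so their differences were not free of the filter.

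Promoter windows of 3 members are shown, because Lyz1 and Lyz2 were among the members with the largest genotype differences and are close copies of each other, and because Mrc1 was the resident marker called in both sexes. They are RefSeq windows of 300 bases on GRCm38.p6, and Lyz1 and Lyz2 lie on the minus strand of chromosome 10 with starts 10596 bases apart (chr10:117292819-117293118 and chr10:117282223-117282522), and Mrc1 on the plus strand of chromosome 2 (chr2:14229164-14229463). Capitals mark ACTTCCT, which reads AGGAAGT on the other strand, a form of the element that ETS factors such as the myeloid factor PU.1 bind.
Lyz1: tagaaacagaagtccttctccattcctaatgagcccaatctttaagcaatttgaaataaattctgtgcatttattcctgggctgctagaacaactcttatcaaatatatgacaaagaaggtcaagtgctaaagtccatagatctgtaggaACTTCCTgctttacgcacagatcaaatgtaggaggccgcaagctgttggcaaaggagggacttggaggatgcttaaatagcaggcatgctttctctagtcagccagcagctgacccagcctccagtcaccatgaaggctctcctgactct
Lyz2: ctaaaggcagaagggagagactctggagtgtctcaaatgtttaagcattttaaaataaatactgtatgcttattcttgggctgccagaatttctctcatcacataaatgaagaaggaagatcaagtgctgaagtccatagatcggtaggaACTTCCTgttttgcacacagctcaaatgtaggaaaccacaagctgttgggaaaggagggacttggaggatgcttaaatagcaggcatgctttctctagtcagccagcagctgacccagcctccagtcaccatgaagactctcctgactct
Mrc1: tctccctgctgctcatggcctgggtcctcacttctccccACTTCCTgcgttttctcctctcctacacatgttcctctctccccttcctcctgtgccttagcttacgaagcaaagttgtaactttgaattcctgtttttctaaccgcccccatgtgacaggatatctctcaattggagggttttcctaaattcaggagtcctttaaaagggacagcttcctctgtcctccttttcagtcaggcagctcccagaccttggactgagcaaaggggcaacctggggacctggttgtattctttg
Set base against base, the Lyz1 and Lyz2 windows were identical at 201 of 300 positions and at 99 of the last 100, which hold the start of the transcripts. Whether the array's probes told the transcripts of these neighbours apart was not tested. Of the 27 genes tested, 20 matched a window in the table, and AGGAAGT, searched on both strands, stood in the windows of 7 of them (Mrc1, Folr2, Fcgr1, Lyz1, Lyz2, F13a1 and Cd53), beside 10.68% of all 27025 genes in the table. Of the 13 members with a window that were called by genotype, 4 held it (Mrc1, Lyz1, Lyz2 and F13a1). Folr2, Fcgr1 and Cd53, which held it too, were not called. A match is a description of these letters.

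Most of the tested markers were higher in cs-ERα−/− than in WT hearts. Averaged over both sexes, 17 of the 27 tested members passed the test (adjusted p under 0.05 over all probes, limma) and were higher, beside 2.69% of all tested genes, and 0 members were lower, beside 1.42%. At an unadjusted p under 0.05 also 0 members were lower, beside 8.93%. Among the 23 members detected on every array, 16 were higher, beside 2.84% of all genes detected on every array. The difference was above 0 for 25 of 27 members, beside 48.1% of all genes, and its median was 0.34 on the log2 scale, beside -0.00413 over all genes. By brightest probe, the called differences lay between 0.29 for Npc2 and 0.59 for Cd52, that is between 1.22-fold and 1.50-fold. The study's own list of genes that differed by genotype on these arrays already held Mrc1, Fcgr3, Lyz2, Laptm5, Npc2 and F13a1. It also held an entry named Lyz, so the calls of these members are not independent findings. When arrays were scaled to a common median instead of quantile-normalized, 8 members remained called (Mrc1, Adgre1, Ms4a7, Lyz1, Lyz2, F13a1, Cd52 and Coro1a), and the calls over all genes were 72 higher and 24 lower, against 231 higher and 122 lower here.

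**Figure D1:**
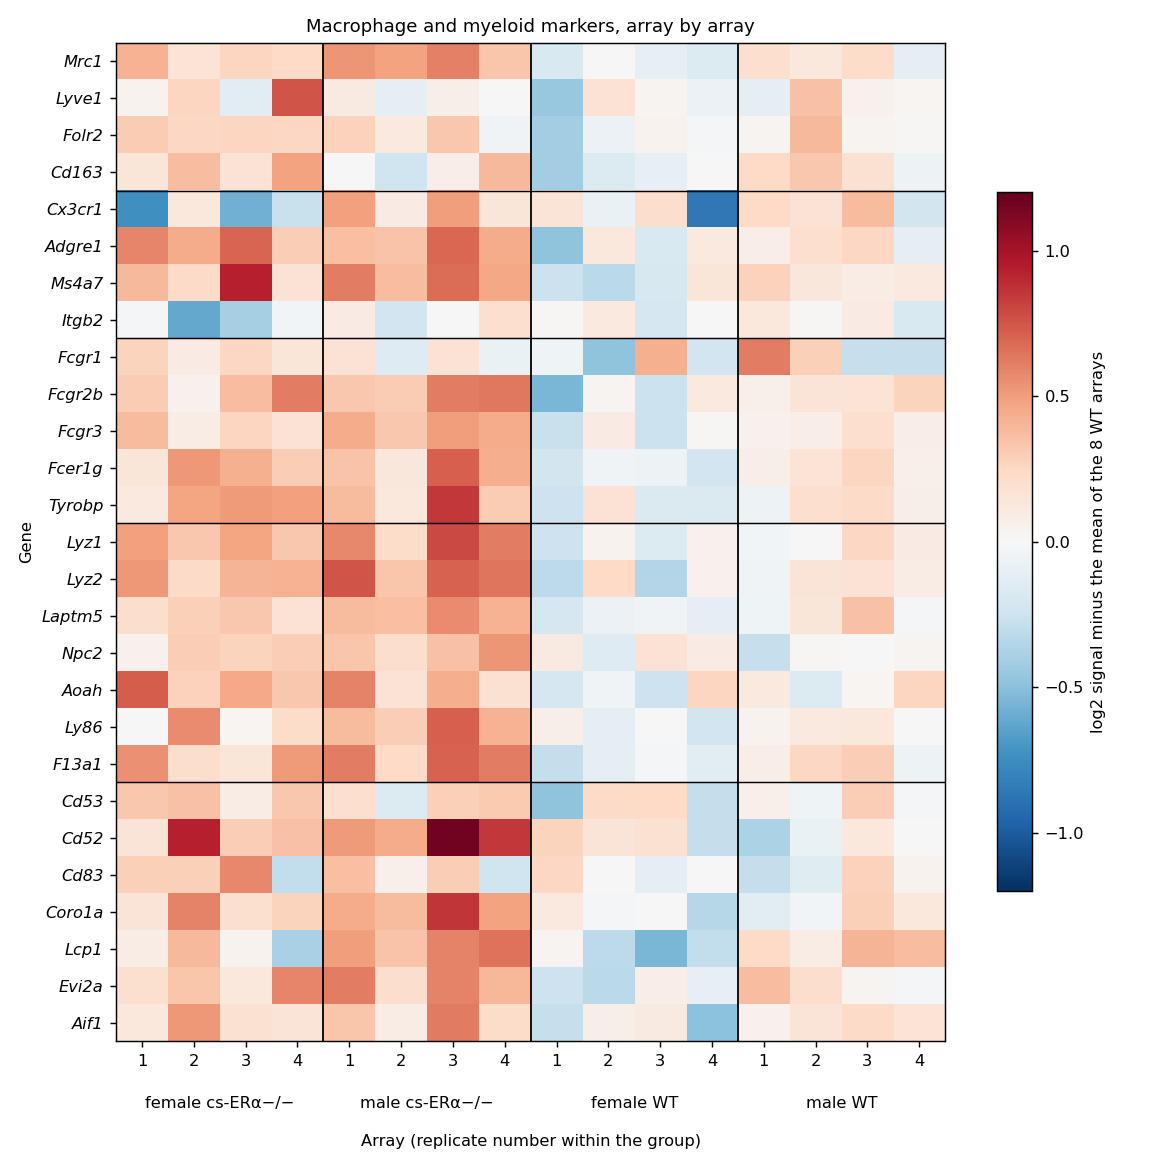
Log2 signal of the 27 tested members on each of the 16 arrays, minus the mean of the 8 WT arrays. Rows are genes ordered by role (lines separate the roles) and columns are arrays by replicate number within a group. Red (higher) cells fill most of the 8 cs-ERα−/− columns, with the deepest red in male cs-ERα−/− replicate 3, and blue (lower) cells are most frequent in female WT replicate 1.

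Of the resident macrophage markers, Mrc1 was called and Lyve1, Folr2 and Cd163 were not. Mrc1, the mannose receptor CD206, had log2 signals of 9.91, 9.66, 9.75 and 9.73 in female cs-ERα−/− hearts, against 9.31, 9.50, 9.39 and 9.33 in female WT hearts. In males, its signals were 10.03, 9.97, 10.10 and 9.82 in cs-ERα−/− hearts, against 9.70, 9.62, 9.72 and 9.38 in WT hearts. Within each sex every cs-ERα−/− array lay above every WT array. The genotype difference was 0.38 (SE 0.06, adjusted p = 0.00036), which is 1.30-fold, and it was called under each of the other settings.

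Folr2, the folate receptor beta, had signals of 8.66, 8.60, 8.62 and 8.61 in female cs-ERα−/− hearts, against 7.95, 8.29, 8.40 and 8.34 in female WT hearts, and the groups did not overlap. Male signals were 8.64, 8.48, 8.69 and 8.32 in cs-ERα−/− hearts, against 8.39, 8.75, 8.39 and 8.38 in WT hearts, and overlapped. Its genotype difference of 0.22 (SE 0.07) missed the threshold (adjusted p = 0.11, 95% interval 0.06 to 0.37), and without male WT replicate 2 it passed at 0.0478.

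Cd163, the receptor that clears haemoglobin bound to haptoglobin, showed a like arrangement. Female signals were 8.19, 8.42, 8.21 and 8.53 in cs-ERα−/− hearts, against 7.63, 7.88, 7.94 and 8.04 in WT hearts, with no overlap. Male signals were 8.05, 7.81, 8.12 and 8.43 in cs-ERα−/− hearts, against 8.29, 8.37, 8.23 and 7.98 in WT hearts, and the WT range lay inside the cs-ERα−/− range. The difference over both sexes was 0.17 (SE 0.09, adjusted p = 0.295, 95% interval -0.00369 to 0.35).

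Lyve1, a hyaluronan receptor that lymphatic vessels carry too, had signals of 7.004, 7.23, 6.83 and 7.72 in female cs-ERα−/− hearts, against 6.51, 7.14, 7.002 and 6.90 in female WT hearts. Male cs-ERα−/− hearts had 7.07, 6.86, 7.03 and 6.96, against 6.86, 7.31, 7.02 and 6.99 in male WT hearts. Both pairs of groups overlapped, and the difference of 0.12 (SE 0.11) was not called (adjusted p = 0.624, 95% interval -0.11 to 0.35).

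Ccr2, the marker of recruited cells, stayed between 4.47 and 4.74 on all 16 arrays, the level of undetected probes. It lay between 4.47 and 4.67 in female and between 4.60 and 4.74 in male cs-ERα−/− hearts, against 4.50 to 4.72 in female and 4.47 to 4.73 in male WT hearts. At this signal a change of Ccr2 could not be seen, so the resident and the recruited markers could not be set against each other.

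**Figure D2:**
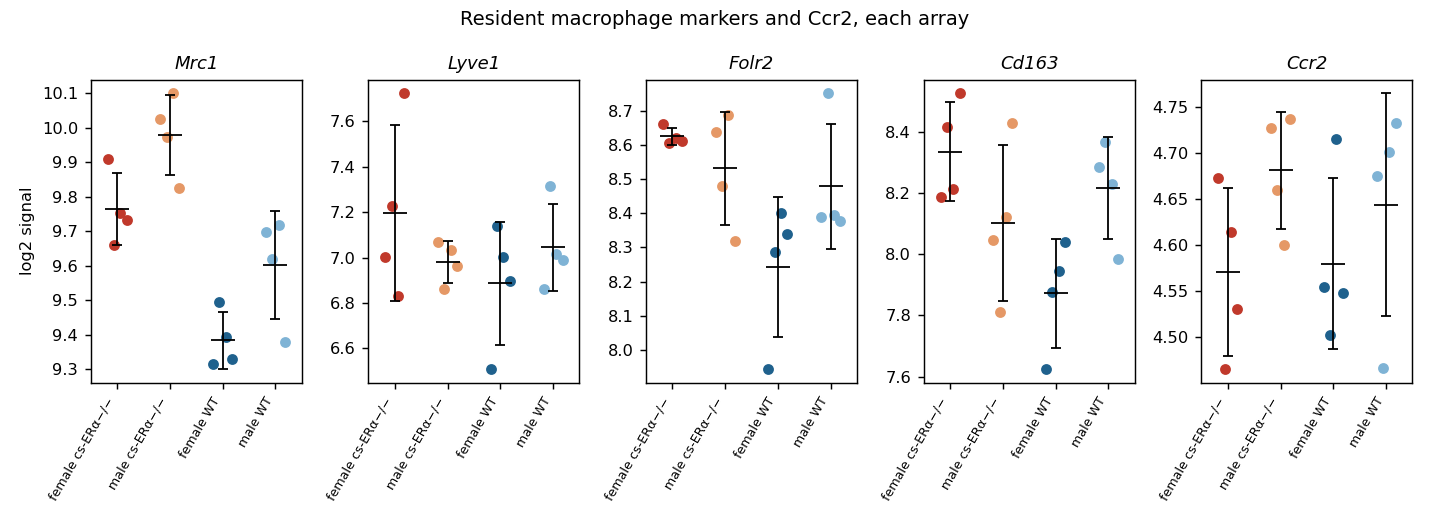
Log2 signal of Mrc1, Lyve1, Folr2, Cd163 and Ccr2 on each array, by group. Points are arrays, and the bar and whiskers give the mean ± SD of 4 arrays. Mrc1 is higher in cs-ERα−/− than in WT hearts in both sexes, Folr2 and Cd163 separate the genotypes in females but overlap in males, and all Ccr2 points lie below 4.75; axes differ between genes and do not start at 0.

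Among surface receptors, Adgre1 and Ms4a7 rose, and Cx3cr1 and Itgb2 were not called. Adgre1, an adhesion receptor used as the general marker of mouse macrophages, had signals of 7.30, 7.16, 7.41 and 7.01 in female cs-ERα−/− hearts, against 6.24, 6.84, 6.53 and 6.84 in female WT hearts. Its male signals were 7.08, 7.06, 7.40 and 7.16 in cs-ERα−/− hearts, against 6.79, 6.91, 6.97 and 6.60 in WT hearts. By its brightest probe, Adgre1 was the 1 member for which all 8 cs-ERα−/− arrays lay above all 8 WT arrays, beside 0.466% of all genes. The difference was 0.48 (SE 0.10, adjusted p = 0.00447), 1.40-fold, and a second tested probe of the gene differed by 0.48 (adjusted p = 0.0115). By the second probe the male groups were apart, but the female groups overlapped, with cs-ERα−/− replicate 1 at 6.75 and WT replicate 2 at 6.77.

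Ms4a7, a membrane protein of macrophages, had signals of 7.76, 7.60, 8.30 and 7.54 in female cs-ERα−/− hearts, against 7.11, 7.05, 7.17 and 7.51 in female WT hearts. Male cs-ERα−/− hearts had 7.99, 7.74, 8.04 and 7.84, against 7.64, 7.51, 7.46 and 7.49 in male WT hearts. Neither sex showed an overlap, and the difference was 0.48 (SE 0.10, adjusted p = 0.00469). Cx3cr1, the fractalkine receptor, averaged 7.002 ± 0.46 in cs-ERα−/− and 7.03 ± 0.40 in WT hearts (SD, n = 8 each), with an interval of the difference of -0.33 to 0.27. Itgb2, the β chain shared by leukocyte integrins, averaged 5.28 ± 0.27 in cs-ERα−/− and 5.40 ± 0.13 in WT hearts (SD, n = 8 each), close to background, with an interval of -0.35 to 0.10.

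Of the Fc receptors and their adaptors, 4 of 5 members rose, beside 2.69% of all tested genes. Fcer1g, the γ chain through which activating Fc receptors signal, had signals of 9.997, 10.37, 10.28 and 10.15 in female cs-ERα−/− hearts, against 9.63, 9.81, 9.79 and 9.62 in female WT hearts. In male hearts they were 10.19, 9.99, 10.57 and 10.29 with the deletion, against 9.92, 10.02, 10.11 and 9.92 in WT. The female groups were apart, the male groups overlapped, and the difference was 0.38 (SE 0.07, adjusted p = 0.00272). Tyrobp, the adaptor DAP12 that plays the same part for other myeloid receptors, had means of 7.84 ± 0.24 with the deletion and 7.44 ± 0.19 in WT (SD over 8 arrays each) and differed by 0.41 (adjusted p = 0.0156). Fcgr3, an activating receptor for IgG, differed by 0.33 (adjusted p = 0.00513). Fcgr2b, the inhibitory IgG receptor, differed by 0.40 (adjusted p = 0.016), but its other 2 tested probes, which were dimmer, differed by -0.04 and 0.25 and were not called, and the mean of its probes was not called. Fcgr1, the high-affinity IgG receptor, averaged 5.44 ± 0.15 in cs-ERα−/− and 5.33 ± 0.40 in WT hearts (SD, n = 8 each) and was not called (adjusted p = 0.738). It was tested only through its detection in female cs-ERα−/− hearts.

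Of the 7 tested genes of lysosomal and secreted proteins, 6 were detected on every array, and these 6 were called higher, with a median of 0.39, beside 2.84% of all genes detected on every array. The other gene was Aoah, which was tested because it was detected in cs-ERα−/− hearts. Lyz1 and Lyz2 encode lysozyme, the enzyme that cleaves bacterial cell walls, and Lyz2 is the gene used to mark myeloid cells in the mouse. Lyz2 had signals of 11.81, 11.52, 11.70 and 11.70 in female cs-ERα−/− hearts, against 10.97, 11.53, 10.93 and 11.34 in female WT hearts. Males had 12.05, 11.63, 11.996 and 11.93 with the deletion, against 11.24, 11.44, 11.47 and 11.38 in WT. The male groups were apart, while in females WT replicate 2 reached into the cs-ERα−/− range by a small margin. The difference of Lyz2 was 0.50 (SE 0.08, adjusted p = 0.000405), 1.42-fold. A dimmer Lyz2 probe, also detected on 16 of 16 arrays, had signals of 8.64, 8.32, 8.55 and 8.67 in female cs-ERα−/− hearts, against 7.65, 7.94, 7.73 and 7.78 in female WT hearts. In males it gave 8.79, 8.43, 8.73 and 8.78 with the deletion, against 7.86, 8.07, 8.20 and 7.84 in WT. All 8 cs-ERα−/− arrays lay above all 8 WT arrays, and the difference of 0.73 (SE 0.07, adjusted p = 1.6e-06), 1.66-fold, was larger than that of the bright probe.

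Lyz1 had signals of 13.78, 13.62, 13.76 and 13.62 in female cs-ERα−/− hearts, against 13.05, 13.34, 13.13 and 13.35 in female WT hearts. Male signals were 13.88, 13.51, 14.09 and 13.91 in cs-ERα−/− hearts, against 13.26, 13.29, 13.55 and 13.39 in WT hearts. Its difference was 0.48 (SE 0.07, adjusted p = 0.00013), the smallest adjusted p among the brightest probes of the 27 members. The female groups were apart, and the male groups overlapped through cs-ERα−/− replicate 2. A dim Lyz1 probe was detected on 3 arrays, all of male cs-ERα−/− hearts, through which it passed the filter. Another Lyz1 probe was detected on 0 arrays, as were a further probe of Lyz2 and a further probe of Ms4a7.

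F13a1, the A subunit of the clot-stabilizing factor XIII, had signals of 10.71, 10.37, 10.30 and 10.67 in female cs-ERα−/− hearts, against 9.87, 10.04, 10.14 and 10.02 in female WT hearts. The male values were 10.77, 10.39, 10.86 and 10.78 in cs-ERα−/− hearts, against 10.23, 10.41, 10.46 and 10.09 in WT hearts. Only the male groups overlapped, through cs-ERα−/− replicate 2, and the difference was 0.45 (SE 0.07, adjusted p = 0.000917). Laptm5, a lysosomal membrane protein of blood cells, differed by 0.34 (adjusted p = 0.0004), with no overlap within either sex. Ly86, a partner of a Toll-like receptor homologue, differed by 0.33 (adjusted p = 0.0261) and Npc2, which carries cholesterol out of lysosomes, by 0.29 (adjusted p = 0.0311). Aoah, which inactivates bacterial lipopolysaccharide, differed by 0.40 (adjusted p = 0.0424). It was detected on 8 of 8 cs-ERα−/− and on 2 of 8 WT arrays. Leaving out 1 array took the call from Npc2 for 7 of the 16 arrays, from Aoah for 10 and from Ly86 for 4, and with no detection filter Npc2 and Aoah were not called.

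Of the pan-leukocyte genes, 3 of 7 rose, beside 2.69% of all tested genes. Cd52, a small glycoprotein on the surface of lymphocytes and myeloid cells, had the largest called difference among the brightest probes of the members. Female cs-ERα−/− hearts had 8.63, 9.40, 8.76 and 8.82, against 8.74, 8.62, 8.65 and 8.18 in female WT hearts, with overlap. Male cs-ERα−/− hearts had 8.98, 8.91, 9.62 and 9.32, against 8.09, 8.39, 8.59 and 8.47 in male WT hearts, without overlap. The difference over both sexes was 0.59 (SE 0.11, adjusted p = 0.00418). It was not called with an ordinary linear model.

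Coro1a, an actin regulator of leukocytes, differed by 0.42 (adjusted p = 0.00528) and was apart within each sex, but the mean of its probes was not called. Of its 4 tested probes 2 were called, at 0.42 and 0.36, and the other 2 differed by 0.43 and 0.10. Evi2a differed by 0.38 (adjusted p = 0.0169). Its second tested probe, detected on 5 arrays, all of cs-ERα−/− hearts, differed by 0.43. Aif1, the calcium-binding protein Iba1, differed by 0.28 (adjusted p = 0.0927), Lcp1, the actin-bundling protein L-plastin, by 0.28 (adjusted p = 0.156), Cd53, a tetraspanin, by 0.22 and Cd83, a surface protein of activated antigen-presenting cells, by 0.17, and these 4 were not called. A second Aif1 probe differed by 0.19 and was not called either.

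Within the sexes, 8 members were called higher in female cs-ERα−/− hearts than in female WT hearts, beside 0.606% of all genes, and 5 in male cs-ERα−/− hearts than in male WT hearts, beside 0.711%. In either sex 0 members were called lower, beside 0.151% of all genes in females and 0.385% in males. Mrc1, Lyz1, Lyz2 and Laptm5 were called in both. Adgre1, Ms4a7, Fcer1g and F13a1 were called in females and not in males, where they differed by 0.36, 0.37, 0.27 and 0.40. Cd52 was called in males, with a difference of 0.82 (adjusted p = 0.0122), and not in females, with 0.35 (adjusted p = 0.426). Members whose arrays did not overlap numbered 13 of 27 in females, beside 3.44% of all genes, and 11 of 27 in males, beside 3.87%, with cs-ERα−/− above WT for each of them. The 13 in females include Aoah, which was tested only through its detection in cs-ERα−/− hearts, so its separation was not free of the filter. The calls within a sex rested on single arrays and on the variance model. In males the count was 0 without cs-ERα−/− replicate 3 and 2 without cs-ERα−/− replicate 1 or WT replicate 1, 2 or 4. In females it was 0 without WT replicate 1, 1 without cs-ERα−/− replicate 1 or 3 and 5 without cs-ERα−/− replicate 2 or WT replicate 3. Without the intensity trend of the variance it was 0 in both sexes. Calls over all genes fell as well. Genes called higher in males numbered 33 without cs-ERα−/− replicate 3, 26 without WT replicate 2 and 20 without the trend, against 61. In females they numbered 19 without WT replicate 1 and 17 without the trend, against 52.

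The test of the difference between the sexes, the interaction, called 0 members and 0 of all 8581 genes (0%). At an unadjusted p under 0.05, 2 members had a larger genotype difference in females, beside 1.96% of all genes, and 0 a smaller one, beside 1.76%. These were the resident markers Cd163 and Folr2. Cd163 differed by 0.46 in females and -0.12 in males, a difference between sexes of 0.58 (SE 0.17, 95% interval 0.22 to 0.94, adjusted p = 0.999 from limma). Folr2 differed by 0.38 in females and 0.05 in males, a difference between sexes of 0.33 (SE 0.15, 95% interval 0.02 to 0.64, adjusted p = 0.999). Lyve1 differed by 0.31 in females and -0.06 in males, with an interval of -0.09 to 0.84 for the difference, whereas Mrc1 differed by 0.38 and 0.38, with an interval of -0.23 to 0.24. No member was thus shown to respond differently in the 2 sexes.

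**Figure D3:**
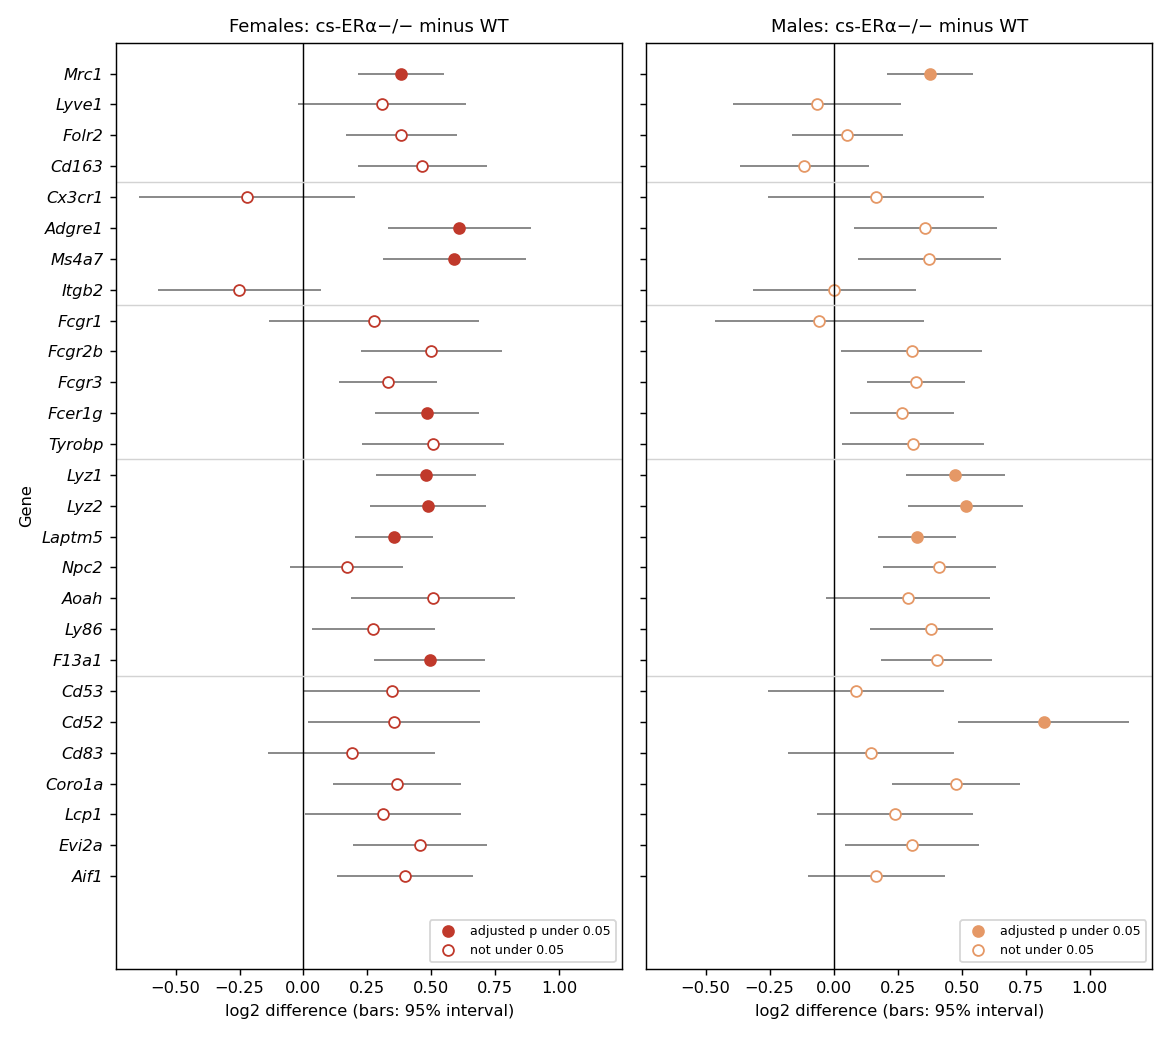
Log2 difference of cs-ERα−/− minus WT for each tested member in females (left panel) and in males (right panel), with 95% intervals from limma. Filled points had an adjusted p under 0.05, 8 in females and 5 in males. Most points lie right of 0 in both panels, and Lyve1, Folr2 and Cd163 lie nearer to 0 in males than in females.

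Between the sexes, 1 member differed. Lcp1 was lower in females, beside 0.653% of all genes that were lower, and 0 members were higher in females, beside 0.757%. At an unadjusted p under 0.05 also 0 members were higher in females, beside 7.1%. With median scaling, the calls over all genes were 41 higher and 19 lower in females, against 65 higher and 56 lower here. Lcp1 had signals of 6.53, 6.84, 6.49 and 6.06 in female and 6.95, 6.78, 7.04 and 7.10 in male cs-ERα−/− hearts, with overlap. In WT hearts, females had 6.48, 6.13, 5.90 and 6.15 and males 6.69, 6.54, 6.86 and 6.82, without overlap. The sex difference was -0.52 (SE 0.10, adjusted p = 0.0101), 0.70-fold, and it stayed called whichever single array was left out, but not with an ordinary linear model.

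The other members leaned the same way without being called. The difference was below 0 for 25 of 27 members, beside 48.5% of all genes, with a median of -0.17, and 13 members had an unadjusted p under 0.05, all lower in females, beside 6.25% of all genes. Mrc1 differed by -0.22 (adjusted p = 0.0633) and Laptm5 by -0.20 (adjusted p = 0.0617), and with the replicate number as a block both passed the threshold. Over the 9 alternative settings with all arrays, the adjusted p ran from 0.0311 to 0.757 for Mrc1 and from 0.0127 to 0.825 for Laptm5. Cx3cr1 had the second-largest sex difference at -0.48 (SE 0.14, adjusted p = 0.118). Its signals were 6.29, 7.15, 6.46 and 6.76 in female and 7.52, 7.13, 7.53 and 7.17 in male cs-ERα−/− hearts. WT hearts had 7.19, 6.95, 7.24 and 6.17 in females and 7.27, 7.20, 7.41 and 6.81 in males, so both pairs overlapped and female WT replicate 4 lay lowest. Within a genotype, 0 members were called between the sexes. In cs-ERα−/− hearts 0.198% of all genes were called higher and 0.0932% lower in females, and 6 members were lower at an unadjusted p under 0.05, beside 4.15%. In WT hearts 0.14% of all genes were called higher and 0.245% lower in females, and 12 members were lower at an unadjusted p under 0.05, beside 4.21%. Female arrays lay wholly below male arrays for 1 member in cs-ERα−/− hearts (Laptm5, beside 2.12% of all genes) and for 2 in WT hearts (Fcer1g and Lcp1, beside 2.38%).

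**Figure D4:**
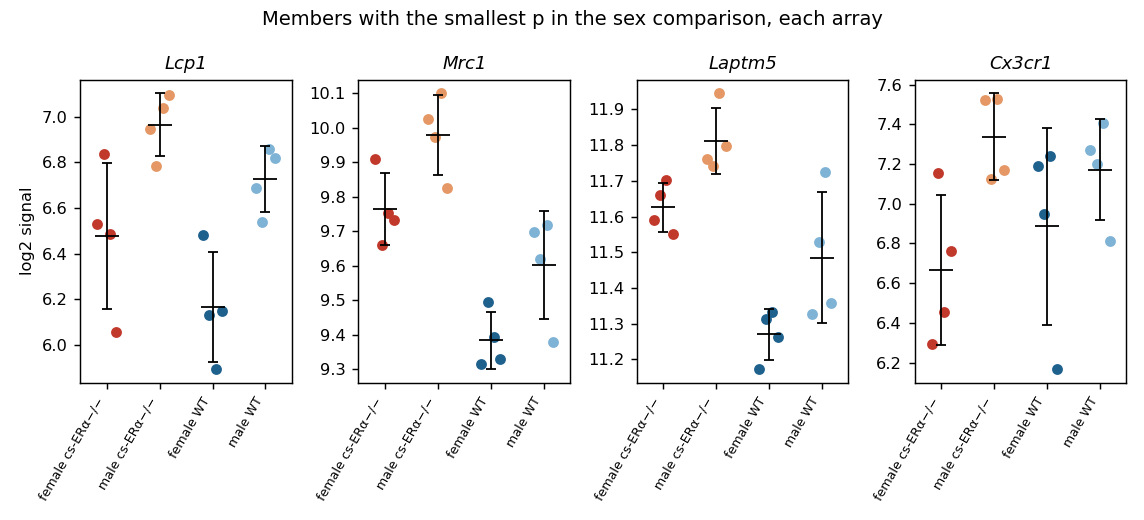
Log2 signal of Lcp1, Mrc1, Laptm5 and Cx3cr1 on each array, by group, with the mean ± SD of 4 arrays. Females lie lower than males on average within each genotype for all 4 genes, and the groups of Lcp1 are apart in WT hearts; axes differ between genes and do not start at 0.

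The common level of the members varied between arrays of a group. The median over the 27 members of the deviation from the WT mean was 0.21 to 0.29 on female and 0.22 to 0.60 on male cs-ERα−/− arrays, against -0.25 to -0.02 on female and 0.02 to 0.21 on male WT arrays. Over all genes the same median stayed between -0.02 and 0.01 on every array. Male cs-ERα−/− replicate 3 stood highest, at 0.60, and female WT replicate 1 lowest, at -0.25. Without both arrays, a choice made after seeing these values, 11 members were called higher, namely Mrc1, Adgre1, Ms4a7, Fcgr3, Fcer1g, Lyz1, Lyz2, Laptm5, F13a1, Cd52 and Coro1a, while the calls over all genes were 132 higher and 64 lower, against 231 and 122 with all arrays. Arrays correlated in pairs at 0.988 to 0.995, and 11492 to 12610 probes were detected per array.

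Related genes outside the set were examined in the same way, in lists chosen with earlier results of these data known. For these lists, detection was not compared between groups, so their calls are not known to be free of the filter. Of 26 further macrophage genes tested, 10 were called higher in cs-ERα−/− hearts and 0 lower, with a median of 0.23. Of all tested genes, 2.69% were called higher and 1.42% lower. The smallest p-values belonged to Lgals3, the lectin galectin-3, at 9.20 ± 0.35 with the deletion and 7.997 ± 0.17 in WT (SD over 8 arrays each), which differed by 1.20 (adjusted p = 3.2e-08 from limma), to C1qb, a chain of complement C1q, at 0.39 (adjusted p = 0.00111), and to Ctsz, a cathepsin, at 0.40 (adjusted p = 0.00528). Of 9 signalling genes below the Fc receptors and Tyrobp, 4 were higher and 0 lower, beside the same shares of all genes. They were led by Nckap1l, Prkcd and Plcg2 with differences of 0.43, 0.33 and 0.35. The study's own list of genes that differed by genotype on these arrays already held Lgals3, C1qb, Ctsz, Nckap1l, Prkcd and Plcg2, so these are not independent findings.

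Ligands of myeloid receptors included 4 called genes of 13 tested, all higher, beside 2.69% of all tested genes. Ccl8, a chemokine that macrophages themselves make, had means of 7.75 ± 0.50 with the deletion and 6.52 ± 0.75 in WT (SD over 8 arrays each), which differed by 1.23 (adjusted p = 0.0069 from limma). Ccl7 and Ccl12, which draw monocytes through Ccr2 in the mouse, differed by 0.57 (adjusted p = 0.00914) and 0.58 (adjusted p = 0.0179). Ccl7 averaged 5.89 with the deletion and 5.32 in WT, close to background, and whether the filter shaped its difference was not tested. Ccl2, Ccl3, Csf2, Csf3 and Il34 were not detected often enough to be tested.

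Markers of other cells were read beside these results. Of 11 T and NK cell genes on the array, 0 passed the detection filter, and of 4 neutrophil, 1 B cell and 4 mast cell genes tested, 0 were called. The same held for 10 endothelial, 5 lymphatic endothelial, 7 cardiomyocyte, 3 red blood cell and 1 adipose genes. Of all tested genes, 2.69% were called higher and 1.42% lower, so 0 calls in lists this short tell little about these cells. Of the endothelial genes 9 of 10 lay below 0, with a median of -0.08 over both sexes, and 10 of 10 in males and 8 of 10 in females did. The smallest p-values belonged to Esam, an adhesion molecule of endothelial junctions, at -0.14 (adjusted p = 0.138), Egfl7, a factor that endothelial cells secrete, at -0.13 (adjusted p = 0.194), and Cdh5, the cadherin of endothelial junctions, at -0.19 (adjusted p = 0.322). Summed over the 7 cardiomyocyte genes, the linear signal was 199785 to 204116 on female and 195227 to 212347 on male cs-ERα−/− arrays, against 192402 to 210914 on female and 192378 to 205407 on male WT arrays. These ranges overlapped, and the cardiomyocyte median difference was 0.02. Of 9 fibroblast genes tested, 2 were higher, Dcn by 0.18 (adjusted p = 0.00753) and Dpt by 0.24 (adjusted p = 0.0111), with a median of 0.12 over the list. The summed fibroblast signal was 23300 to 24877 on female and 21320 to 25508 on male cs-ERα−/− arrays, against 20116 to 21725 on female and 19640 to 21987 on male WT arrays. Of 4 smooth muscle genes, Acta2, the smooth muscle actin, was higher by 0.52 (adjusted p = 0.00372), and the summed signal of the list was 11567 to 16691 and 11723 to 14964 on female and male cs-ERα−/− arrays, against 10107 to 13504 and 10969 to 12534 on female and male WT arrays. The part of these cells in the results for the members was not tested.

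**Figure D5:**
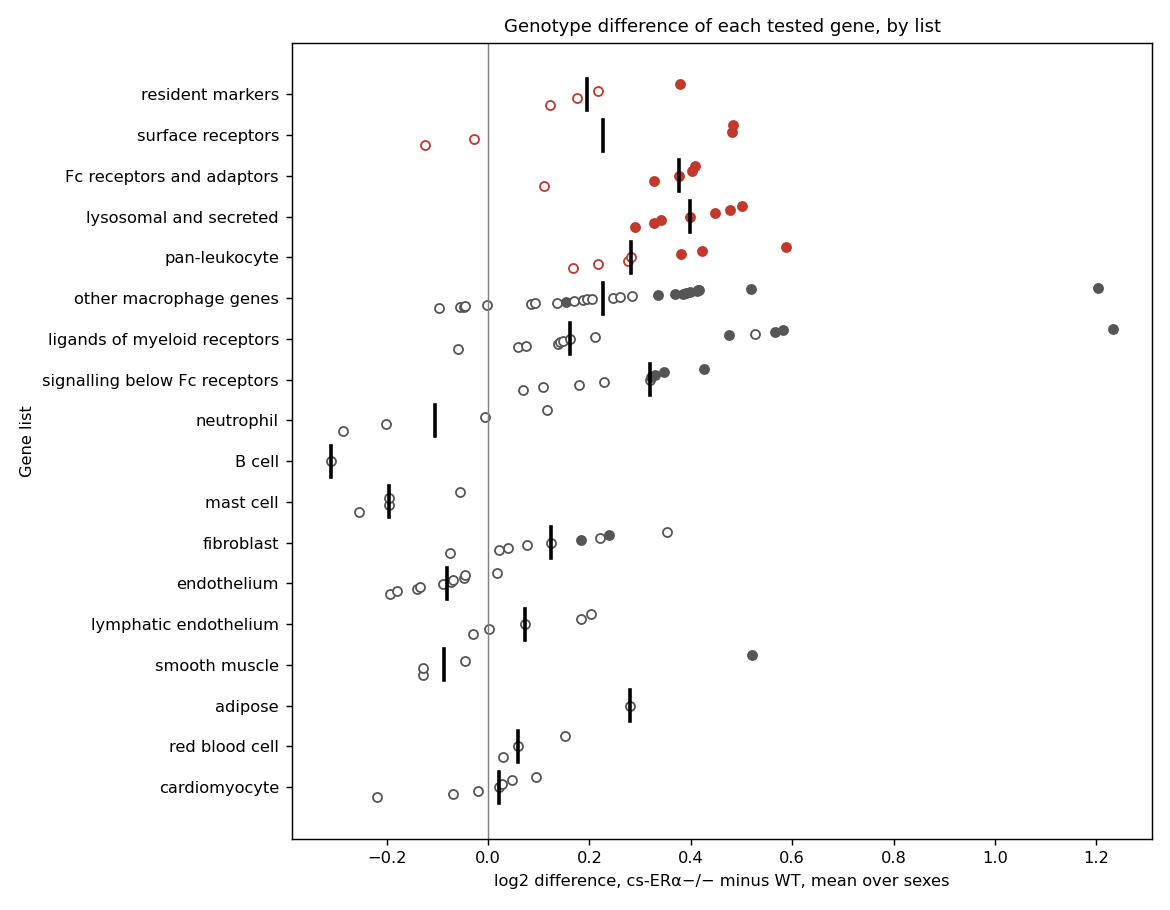
Log2 difference of cs-ERα−/− minus WT, averaged over both sexes, for each tested gene of the role groups of the members (red) and of the other lists (grey). Filled points had an adjusted p under 0.05 and black bars are list medians. The lysosomal and secreted members are filled and right of 0, including Aoah, which was tested through its detection in cs-ERα−/− hearts. Cardiomyocyte genes lie on both sides of 0 and endothelial genes mostly left of it, with open points.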

How the data were processed

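Cardiac RNA of 16 mice was measured, 1 Illumina MouseRef-8 array per mouse, and the labels gave the group of each mouse. The authors averaged the beads of each probe in Genome Studio. The deposited non-normalized signal is an intensity on a linear scale, with background already subtracted, and the deposited p-value beside it is the detection p-value against negative control beads. The deposited normalized intensity was made by the authors with a cubic spline and served as an alternative.

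Signals were background-corrected and quantile-normalized with neqc (offset 16) and fitted with limma 3.58.1 in R 4.3.3, with a mean per group and moderated variances with an intensity trend. Contrasts were cs-ERα−/− minus WT, female minus male, the interaction of both and cs-ERα−/− minus WT within each sex. A call needed a p under 0.05 after Benjamini-Hochberg adjustment over 12246 probes. No label names the BeadChip, so the chip term of the methods was left out. The script was tested on simulated data. Symbols came from the platform annotation, with 1719 probes unnamed, and promoter windows from RefSeq (GRCm38.p6). Figures were drawn with matplotlib 3.10.9.

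Members and lists were chosen with earlier results of these data known. Every tested member could be named. Values on every array are given for Mrc1, Lyve1, Folr2, Cd163, Adgre1, the 6 members with the largest called genotype difference and any member called in the sex comparison, the interaction or 1 sex only, and Ccr2 and Ptprc, undetected, by their range or detection. Laptm5 and Cx3cr1 were added after their values were seen. From other lists the 3 genes with the smallest genotype p could be named. Alternatives were the authors' normalized values, no further background correction, median scaling, no filter, a filter on every group, no trend, an ordinary linear model, the replicate number as a block, the mean of a gene's probes, arrays of 1 sex and leaving out each array. The number of arrays limits the precision.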

Additional observations from a re-analysis of the deposited data

Results flagged for a closer look

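In 6 of 108 gene and group combinations, 1 array stood apart from the other 3 of its group by more than Dixon's critical share of the group's range, and chance gives about 1 in 20. Female cs-ERα−/− replicate 1 was low for Tyrobp, at 7.55 against 7.91 to 7.95 on the other 3 arrays, and for Npc2, at 7.05 against 7.27 to 7.30. Female cs-ERα−/− replicate 3 was low for Cd53, at 5.44 against 5.67 to 5.70, and replicate 2 was high for Aif1, at 8.37 against 7.98 to 8.04. Among WT hearts, male replicate 2 was high for Folr2, at 8.75 against 8.38 to 8.39, and male replicate 1 was low for Npc2, at 6.73 against 7.01 to 7.04. Without male WT replicate 2 the genotype difference of Folr2 passed the threshold, and without male WT replicate 1 that of Npc2 did not.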

How the results depend on the processing

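For the genotype difference, called members numbered 8 with median scaling, 11 with the ordinary linear model and 11 without the highest and the lowest array, against 17, and 14 to 17 when 1 array was left out, lowest without male cs-ERα−/− replicate 3. The sex difference gave 0 with the ordinary linear model, 3 with the replicate number as a block and 1 to 3 with 1 array left out, against 1. It was 3 without male WT replicate 4. The interaction gave 0 throughout. In females the count was 0 with median scaling, with an ordinary linear model and when variances had no trend, 5 with female arrays alone and 0 to 9 with 1 array left out, against 8. In males it was 1 with median scaling, 0 with an ordinary linear model and when variances had no trend, and 0 to 6 with 1 array left out, against 5. Over all genes the higher calls fell too. With median scaling they numbered 19 in females and 18 in males, against 52 and 61. The ordinary linear model left 15 in females, 15 in males and, over both sexes, 155 against 231. The causes were not tested. The same settings changed the sign of some differences that lay near 0 and were not called. With 1 array left out, the genotype difference of Cx3cr1 ran from -0.148 to 0.0343 and the sex difference of Lyve1 from -0.0599 to 0.0908, of Fcgr1 from -0.0898 to 0.0837, of Npc2 from -0.0449 to 0.0273, of Aoah from -0.0628 to 0.0317 and of Cd53 from -0.0716 to 0.0513. With median scaling the sex difference was 0.000777 for Fcgr1, 0.0375 for Npc2 and 0.00593 for Aoah. The labels do not say that a replicate number marks a shared litter, batch or day, and the numbers were not taken as pairs. Deviations of same-numbered arrays correlated between -0.107 and 0.204 (median 0.058), over 0.1 in 7 of 24 pairs. These were all 6 pairs of replicate 4 (0.112 to 0.204) and 1 of the 18 others. What the replicate 4 arrays share was not tested. Of the arrays, 9 of 16 correlated best with their own number. With the replicate block, 17 members were called by genotype, 9 in females, 5 in males and 0 in the interaction. Ccr2, Ptprc, Itgam, Msr1 and Cd48 lay at background, where differences could not be seen.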
